A study of Rattus norvegicus with 8 samples.

Results

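The genes described here are the 6 mitochondrially encoded subunits of respiratory chain complexes III, IV and V, out of 32883 IDs in the deposited table. They were chosen by Ensembl rat gene ID and by no rule on measured values, but with earlier results of these data known. They are Mt-cyb (ENSRNOG00000031766) of complex III, Mt-co1 (ENSRNOG00000034234), Mt-co2 (ENSRNOG00000030371) and Mt-co3 (ENSRNOG00000030700) of complex IV, and Mt-atp6 (ENSRNOG00000031979) and Mt-atp8 (ENSRNOG00000033299) of complex V. The table holds IDs alone, and the symbols are those given with the list of IDs. All 6 IDs were found, and all 6 passed the filter on low counts.

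The samples were upper spinal cord of Sprague Dawley rats, 23 days after a hemisection of the cord at thoracic segment 9. Both groups carried the injury: 4 samples were from rats that were trained after it and 4 from rats that were not. The labels name no uninjured group, no kind of training and no sex or age. The question of the comparison was how training alters the transcriptome of cord above the lesion. Nothing in the labels ties the samples to separate animals, so p-values measure only the spread between these samples, which may be technical.

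Complex III, the cytochrome bc1 complex, passes electrons from ubiquinol to cytochrome c and pumps protons. Complex IV, cytochrome c oxidase, passes them on to oxygen and pumps protons as well, and complex V, ATP synthase, lets protons back through the inner membrane to make ATP. Most subunits of these complexes are encoded in the nucleus, while a core set of membrane proteins is still encoded in mitochondrial DNA and transcribed there as long precursors that are cut into separate mRNAs. Neurons depend heavily on this chain for ion pumping. In a whole-tissue sample, fewer cells of a type and less RNA per cell cannot be told apart, and markers of the tissue's cell types were not analysed here because the IDs are not paired with symbols.

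RNA was counted with CEL-Seq2, which primes on the poly(A) tail and tags each molecule with a random identifier (unique molecular identifier, UMI), so that 1 count stands for 1 distinct tag near a transcript's 3' end. Library totals ran from 141737 to 298262 counts, a 2.10-fold range. Trained libraries 1 to 4 held 191502, 216603, 152764 and 141737 counts, and untrained libraries 1 to 4 held 298262, 287908, 201445 and 179264. At each of the 4 title numbers the trained library was the shallower one, and in each group numbers 1 and 2 were deeper than numbers 3 and 4. Levels below are CPM values, counts scaled to a common library size by the whole library total, unless another scale is named.

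Mt-cyb encodes cytochrome b, a heme-carrying subunit of complex III. It had 3329, 3162, 2957 and 2912 counts in trained libraries 1 to 4 and 3603, 3551, 3426 and 3209 in untrained libraries 1 to 4. It ranked between 1 and 5 among all genes of each library, and its count was the lower one in the trained library at all 4 numbers. Scaled to CPM, the order was turned around: it measured 17384, 14598, 19357 and 20545 CPM in trained libraries 1 to 4 and 12080, 12334, 17007 and 17901 CPM in untrained ones. The trained CPM was the higher one in 4 of 4 same-number pairs, by 1.14-fold to 1.44-fold, while the groups overlapped. A count that hardly changes with depth gives a higher CPM in the shallower library of a pair, which was the trained one each time. The part of depth in this difference was not tested.

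Mt-atp6 encodes subunit a of ATP synthase, which forms the proton path beside the rotating ring. Its counts were 2871, 3031, 3271 and 2711 in trained libraries 1 to 4 and 3387, 3451, 3468 and 3111 in untrained libraries 1 to 4, ranks 4 to 6. As for Mt-cyb, the trained count was the lower one and the trained CPM the higher one in 4 of 4 pairs. The level was 17381 ± 3487 CPM in trained and 14478 ± 3252 CPM in untrained libraries (SD, n = 4), and the groups overlapped.

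Mt-atp8 encodes a small membrane subunit of ATP synthase, and its reading frame overlaps the start of Mt-atp6 on a shared mRNA. It was far less counted, with 34, 16, 23 and 45 counts in trained libraries 1 to 4 and 44, 20, 40 and 52 in untrained libraries 1 to 4. The 95% Poisson interval of its lowest count, 16, ran from 9.15 to 25.98, and that of its highest, 52, from 38.8 to 68.2. These intervals cover counting error only. A method that reads 3' ends sees the Mt-atp6 end of this shared mRNA. How reads in the overlap were assigned is not given in the sources used here, so the 2 counts are not separate measures of 2 transcripts. Levels were 180 ± 102 CPM in trained and 176 ± 92.5 CPM in untrained libraries (SD, n = 4).

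Mt-co1 encodes the catalytic subunit of cytochrome c oxidase, where oxygen is reduced. It had 1296, 945, 962 and 637 counts in trained libraries 1 to 4 and 1596, 1236, 1301 and 865 in untrained libraries 1 to 4. The trained count was lower in all 4 pairs, but the trained CPM was higher in only 2 of 4. Levels were 5480 ± 1231 CPM in trained and 5232 ± 925 CPM in untrained libraries (SD, n = 4), a difference smaller than the spread in either group.

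Mt-co2 encodes the subunit that takes electrons from cytochrome c. Its counts were 1301, 1129, 1213 and 1536 in trained libraries 1 to 4 and 1599, 1268, 1603 and 1931 in untrained libraries 1 to 4. In both groups the library numbered 4, the shallowest one, had the highest count of this gene. At 10837 CPM (trained) and 10772 CPM (untrained), number 4 also had the highest level, and number 2, at 5212 and 4404 CPM, the lowest. Group levels were 7696 ± 2374 CPM in trained and 7124 ± 2858 CPM in untrained libraries (SD, n = 4).

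Mt-co3 encodes the other large core subunit of the oxidase and lies just after Mt-atp6 in the mitochondrial genome. It had 388, 272, 309 and 156 counts in trained libraries 1 to 4 and 504, 340, 262 and 183 in untrained libraries 1 to 4, ranks 45 to 127. It was the only 1 of the 6 with a higher raw count in a trained library of a pair, at number 3. Its level was 2026, 1256, 2023 and 1101 CPM in trained libraries 1 to 4 and 1690, 1181, 1301 and 1021 CPM in untrained ones. The trained value was higher in 4 of 4 pairs, by 1.06-fold to 1.56-fold, and the groups overlapped.

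**Figure D1:**
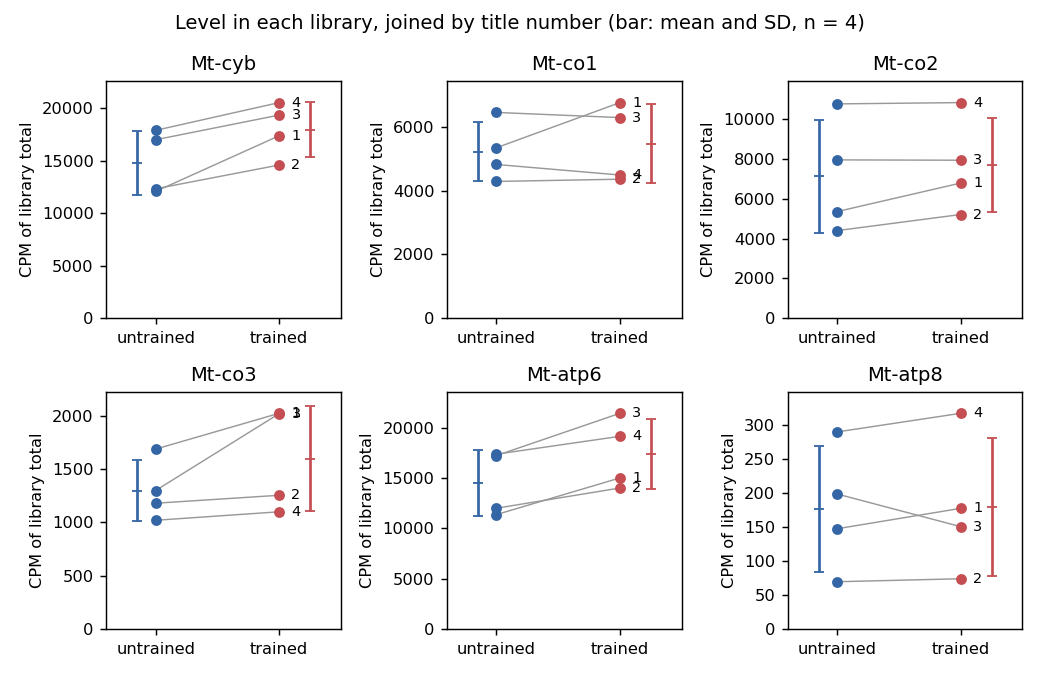
Level of each gene in CPM of the library total (vertical axis, starting at 0) in the 4 untrained and 4 trained libraries; grey lines join libraries of the same title number, printed at the right, and bars give mean and SD (n = 4). Mt-cyb, Mt-co3 and Mt-atp6 had the higher trained level in 4 of 4 pairs, in each of which the trained library was the shallower one. In every panel the groups overlap.

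No member differed with training past the threshold. Fold changes come from edgeR's quasi-likelihood test over the 3016 genes that passed the filter, scaled by TMM (a trimmed mean of ratios), with Benjamini-Hochberg adjustment over all of them and a threshold of 0.05. That fit called 0% of genes, and 51 of 3016 had an unadjusted p under 0.05. DESeq2 on the same 3016 genes also called 0, with 31 at an unadjusted p under 0.05, and on all 12545 genes with a count it called 0, with 60. The largest fitted difference among the members was that of Mt-co3, at 0.38 on the log2 scale (SE 0.25, 95% interval -0.14 to 0.90; edgeR adjusted p = 0.999). For Mt-cyb it was 0.34 (SE 0.26, interval -0.21 to 0.88) and for Mt-atp6 0.32 (SE 0.27, interval -0.25 to 0.89). The log2 fold changes of Mt-co2, Mt-co1 and Mt-atp8 were 0.17, 0.13 and 0.09, with intervals of -0.51 to 0.84, -0.38 to 0.64 and -0.83 to 1.02. The adjusted p was 0.999 for each of the 6. With all 8 libraries a 2-fold difference in scaled deposited counts lay outside the interval of 5 members and just inside that of Mt-atp8. Leaving out 1 library loses this bound for 4 more: the upper end was 1.07, 1.14 and 1.08 for Mt-cyb, Mt-co2 and Mt-atp6 without untrained 4, and 1.07 for Mt-co3 without untrained 1. Similar ends, from 1.01 to 1.07, were reached for some of these 4 without untrained 3 or trained 1, 2 or 4. These bounds are on counts, and under the possible ceiling described below they are no bounds on molecules. In edgeR with counts corrected for that ceiling the interval was -0.49 to 0.72 for Mt-cyb and -0.54 to 0.79 for Mt-atp6.

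The fitted value was above 0 for 6 of 6 members, with a median log2 fold change of 0.25, against 1476 of 3016 genes and a median of -0.00491 over all genes tested. Among the 82 genes averaging at least 300 counts it was above 0 for 58, with a median of 0.08. These 82 include every member but Mt-atp8, and the cut lies just under the mean count of Mt-co3, 301.75. The members share libraries and precursor transcripts and were not independent, and their common sign was not tested. The sign of Mt-co2 turned to -0.02 without untrained 2 and to -0.06 without trained 4. That of Mt-atp8 turned to -0.02, -0.20 and -0.33 without untrained 1, untrained 2 and trained 4.

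Title numbers run from 1 to 4 in both groups, and same-number libraries deviated together across genes, so the fit was repeated with the number as a block. No member was called with it, and it again called 0% of genes; 154 had an unadjusted p under 0.05. In edgeR's blocked fit the log2 fold change of Mt-cyb was 0.36 (SE 0.13, interval 0.08 to 0.63, unadjusted p = 0.0143, adjusted p = 0.810). That of Mt-co3 was 0.35 (SE 0.13, interval 0.07 to 0.62, unadjusted p = 0.0163, adjusted p = 0.847), and that of Mt-atp6 0.34 (SE 0.12, interval 0.07 to 0.60, unadjusted p = 0.0158, adjusted p = 0.847). No correction for the many genes tested enters these intervals. An unadjusted p under 0.05 was thus seen for 3 of 6 members, against 5.11% of all genes tested. Of the 82 genes averaging at least 300 counts, a set that includes these 3 members, 20.7% had one.

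The most counted members lay near the top of what the table holds. No value of the 263064 in the table exceeded 4012, just under 4096, the number of distinct identifiers that 6 bases can make. The identifier length is not given in the sources used here, so 4096 is an assumption read from the values. Against that figure, Mt-cyb stood at 71.1% to 87.96% in the 8 libraries and Mt-atp6 at 66.2% to 84.7%. Mt-co2 stood at 27.6% to 47.1%, Mt-co1 at 15.6% to 38.96%, Mt-co3 at 3.81% to 12.3% and Mt-atp8 at no more than 1.27%. If identifiers were drawn at random from 4096, a 2-fold rise in molecules from the mean count would raise the count of Mt-cyb 1.20-fold and that of Mt-atp6 1.23-fold, but that of Mt-co3 1.93-fold.

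Counts of Mt-cyb and Mt-atp6 followed library depth only weakly. Across the 2.10-fold range of totals the count of Mt-cyb spanned 1.24-fold and that of Mt-atp6 1.28-fold, while that of Mt-co3 spanned 3.23-fold and that of Mt-co1 2.51-fold. The slope of log2 count on log2 total over the 8 libraries was 0.27 for Mt-cyb and 0.21 for Mt-atp6. It was 0.85 for Mt-co1 and 1.01 for Mt-co3. The median slope was 1.25 over 3151 genes with a count in every library and a mean of 10 or more. Mt-co2 and Mt-atp8 had slopes of -0.05 and -0.36, and both were most counted in a number 4 library. Since every pair's trained library was the shallower one, slopes over all 8 libraries mix group with depth. Within trained and within untrained libraries the slope was 0.26 and 0.19 for Mt-cyb, 0.06 and 0.12 for Mt-atp6, 0.94 and 0.77 for Mt-co1, and 1.13 and 1.56 for Mt-co3. For Mt-co2 it was -0.48 and -0.50, and for Mt-atp8 -1.52 and -0.96. After a correction for a ceiling of 4096 the slope over all libraries was 0.68 for Mt-cyb and 0.48 for Mt-atp6. With so few libraries these slopes are a description.

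**Figure D2:**
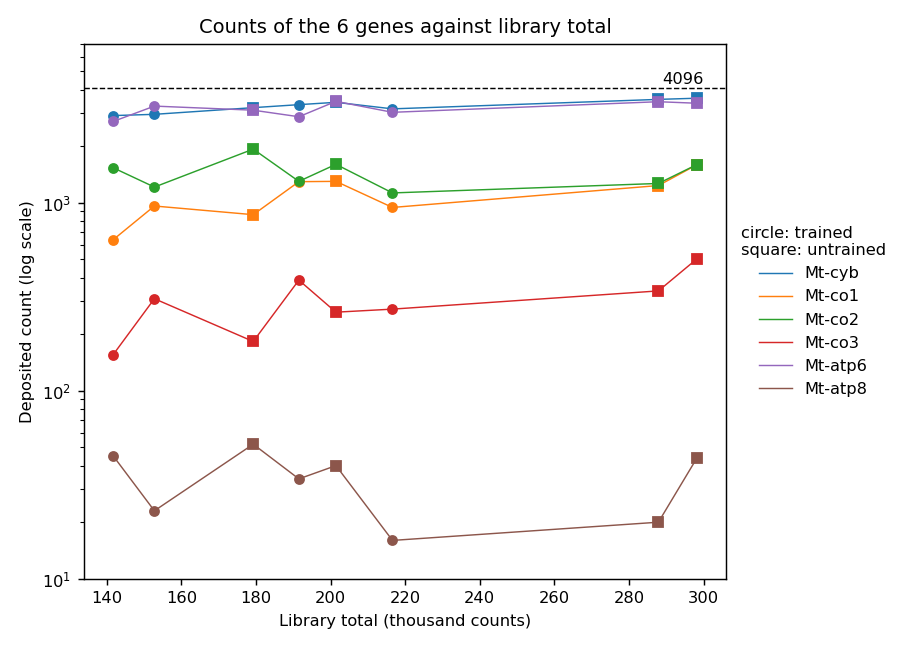
Deposited count of each gene (vertical log axis) against library total (horizontal axis, in units of 1000 counts); circles are trained and squares untrained libraries, lines only join the points of a gene, and the dashed line marks 4096. Mt-cyb and Mt-atp6 lie flat at 2711 to 3603 counts, whereas Mt-co3 ranges from 156 to 504.

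This correction, which replaces every count by the number of molecules that would give it under the ceiling, lowered the fitted training difference of the 4 most counted members and hardly moved that of the other 2. In edgeR with corrected counts the log2 fold change of Mt-cyb was 0.12 (SE 0.28) in place of 0.34, and that of Mt-atp6 0.12 (SE 0.31) in place of 0.32. Mt-co2 and Mt-co1 stood at 0.08 and 0.08. Mt-co3, whose counts lay far below the ceiling, was at 0.38 (SE 0.26) as before, and Mt-atp8 at 0.10. The adjusted p was 0.999 for each. On this scale the trained CPM of Mt-cyb was 28792 ± 2781 against 27495 ± 2737 (SD, n = 4), higher in 3 of 4 pairs. That of Mt-atp6 was 26876 ± 6057 against 25648 ± 4640 (SD, n = 4), also higher in 3 of 4 pairs.

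With the correction and the block together, the log2 fold changes were 0.12 (SE 0.15) for Mt-cyb and 0.11 (SE 0.15) for Mt-atp6, with unadjusted p of 0.447 and 0.456 in edgeR. Mt-co3 was at 0.34 (SE 0.13, unadjusted p = 0.0215, adjusted p = 0.912). So the small unadjusted p of Mt-cyb and Mt-atp6 in the blocked fit was present in the deposited counts and absent after the correction, and that of Mt-co3 was present in both.

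**Figure D3:**
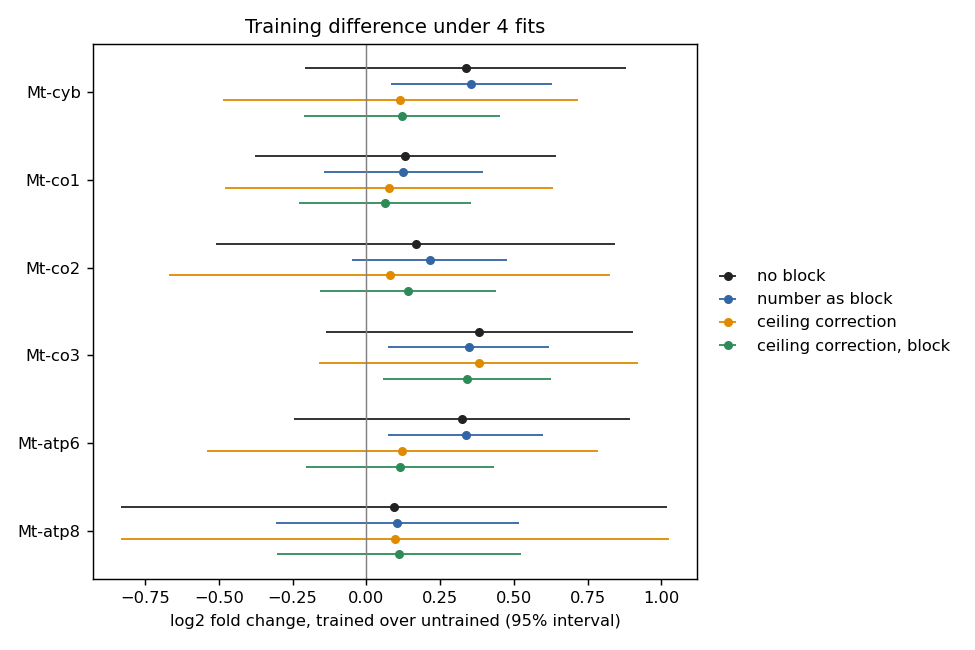
Log2 fold change of trained over untrained (horizontal axis) with its 95% interval for each gene under 4 edgeR fits: no block, title number as block, ceiling correction, and both. Mt-cyb falls from 0.34 to 0.12 and Mt-atp6 from 0.32 to 0.12 with the correction, while Mt-co3 stays at 0.38.

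The 6 genes together took 4.81%, 3.95%, 5.72% and 5.64% of trained libraries 1 to 4 and 3.60%, 3.43%, 5.01% and 5.22% of untrained libraries 1 to 4. The widest 95% Wilson interval of these shares reached 0.12 percentage points to either side and covers counting error only. Mt-cyb and Mt-atp6 made up 65.1% to 72.4% of the members' counts. The share was 5.03% ± 0.83 with training and 4.31% ± 0.93 without (SD, n = 4), a difference of 0.72 percentage points. The trained share was the higher one in 4 of 4 pairs, but not beyond the spread between samples (two-sided exact permutation test over 70 allocations, p = 0.257; the smallest possible p is 0.0286). Sign flips within pairs gave an exact permutation p of 0.125, the smallest that 4 pairs allow. With the ceiling correction the shares were 7.06% ± 0.87 and 6.75% ± 1.004 (SD, n = 4; exact permutation p = 0.743), a difference of 0.31 points. The trained share was then the higher one in 3 of 4 pairs. The trained library was the shallower one in each pair, and the part of depth in the share was not tested. In the deposited counts, leaving out 1 library, the difference ran from 0.42 points without untrained 2 to 1.08 points without trained 2. It was 0.48 without untrained 1 and 0.49 without trained 3.

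The members also differed by title number. In an edgeR fit with number and group, which was added after the values were seen, the number effect passed an adjusted p of 0.05 for 5 of 6 members, against 12.6% of the 3016 genes tested. Of the 82 genes averaging at least 300 counts, which include every member but Mt-atp8, 42.7% did so. The adjusted p was 0.00205 for Mt-co2, 0.00231 for Mt-atp8, 0.0174 for Mt-atp6, 0.0274 for Mt-co3 and 0.0444 for Mt-cyb. For Mt-co1 it was 0.0502. The labels do not say what the number stands for, and depth moved with it, since numbers 1 and 2 were deeper than 3 and 4 in both groups; the part of depth in these differences was not tested.

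These calls were not equally firm. For Mt-co2 and Mt-atp8 the adjusted p by edgeR was at most 0.0410 and 0.0361 in the 8 fits that left out 1 library. Without both samples of number 2 it was 0.0549 for Mt-co2 and 0.0670 for Mt-atp8, and without those of number 4 it was 0.0415 and 0.0523. The calls of Mt-cyb and Mt-atp6 were lost without any 1 of untrained 2, 3 and 4 and trained 2, 3 and 4, with adjusted p of 0.0994 to 0.245 and of 0.0547 to 0.124. That of Mt-co3 was lost without untrained 2 or 4 or trained 2, 3 or 4 (adjusted p 0.0504 to 0.151). It was also lost by DESeq2 (adjusted p = 0.0873 in the fit of the same genes). The count over all genes ran from 65 without trained 4 to 543 without trained 1. With the ceiling correction Mt-cyb was at an adjusted p of 0.284 and Mt-co1 at 0.0447 by edgeR, while the other 4 members stayed under 0.05. The call of Mt-cyb was also lost with library totals without TMM (edgeR adjusted p = 0.0643). Mt-co1 lay at the threshold and passed it in 8 of 20 alternatives, with an edgeR adjusted p of 6.76e-05 without untrained 1 and 5.62e-05 without trained 1, and of up to 0.345 in the others.

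The members did not move together across numbers. Mt-co2 averaged 10804 CPM over both number 4 libraries and 4808 CPM over both of number 2. Mt-atp8 had the same order, with 304 CPM at number 4, 175 at number 3, 163 at number 1 and 71.7 at number 2. Mt-co3 instead was lowest at number 4, with 1061 CPM, and highest at number 1, with 1858 CPM. Mt-co1 was high at numbers 1 and 3 (6059 and 6378 CPM) and low at 2 and 4 (4328 and 4660 CPM). Mt-cyb and Mt-atp6 were high at numbers 3 and 4, at 18182 to 19314 CPM, and low at 1 and 2, at 12990 to 14732 CPM. For Mt-cyb this split was not seen after the ceiling correction, with 28517, 24852, 29392 and 29812 corrected CPM at numbers 1 to 4, of which only number 2 stood lower. Mt-atp6 kept it, with 21935, 22711, 33511 and 26890 corrected CPM.

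Ratios of members within a library need no scaling to its total, but they can still move with depth where 2 members follow it unequally. The slopes on the total were 0.21 for Mt-atp6 and 0.27 for Mt-cyb, against 0.85 for Mt-co1 and 1.01 for Mt-co3. The part of depth in the ratios was not tested. Of the 15 ratios between 2 members, the number accounted for 75.95% to 98.3% of the spread of log2 values in 14. The exception was Mt-co1 to Mt-co3, where it took 45.2% and the group 20.5% (28.7% and 33.4% after the ceiling correction), and where same-number libraries differed by up to 1.595-fold, the whole range of that ratio. A factor of 4 levels takes a sizeable part of the spread of 8 values even where nothing differs, and that part was not computed. Ratios of other gene pairs were not computed either, so these parts were not compared with a background. The 15 ratios share members and were not independent. By number, 42.7% of the 82 genes averaging at least 300 counts differed at an edgeR adjusted p under 0.05. That is a share of single genes called and not a part of spread, so it is no background for the ratios. The 3 ratios given by library below were chosen after their values were seen and were not tested. The ratio of Mt-co2 to Mt-co1 counts was 1.004, 1.19, 1.26 and 2.41 in trained libraries 1 to 4 and 1.002, 1.03, 1.23 and 2.23 in untrained libraries 1 to 4. Same-number libraries thus differed by at most 1.16-fold, while the ratio spanned 2.41-fold over the 8 libraries. Its means were 1.47 ± 0.64 with training and 1.37 ± 0.58 without (SD, n = 4). The number accounted for 98.3% of the spread of its log2 values and the group for 0.93%, where a factor of 4 levels takes a larger part of any spread than one of 2. After the ceiling correction the ratio ran from 1.002 to 2.78, again highest in both number 4 libraries.

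The ratio of Mt-atp8 to Mt-co1 was 0.0262, 0.0169, 0.0239 and 0.0706 in trained libraries 1 to 4 and 0.0276, 0.0162, 0.0307 and 0.0601 in untrained ones. It was highest at number 4 and lowest at number 2 in both groups. The ratio of Mt-co3 to Mt-atp6, neighbours in the mitochondrial genome, went the other way. It was 0.135, 0.0897, 0.0945 and 0.0575 in trained libraries 1 to 4 and 0.149, 0.0985, 0.0755 and 0.0588 in untrained ones, highest at number 1 and lowest at number 4 in both groups. After the ceiling correction it was 0.0824, 0.0510, 0.0490 and 0.0358 in trained libraries and 0.0749, 0.0469, 0.0353 and 0.0321 in untrained ones. The extremes stayed at the same numbers, but the trained ratio was the higher one in 4 of 4 pairs, against 1 of 4 in the deposited counts.

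**Figure D4:**
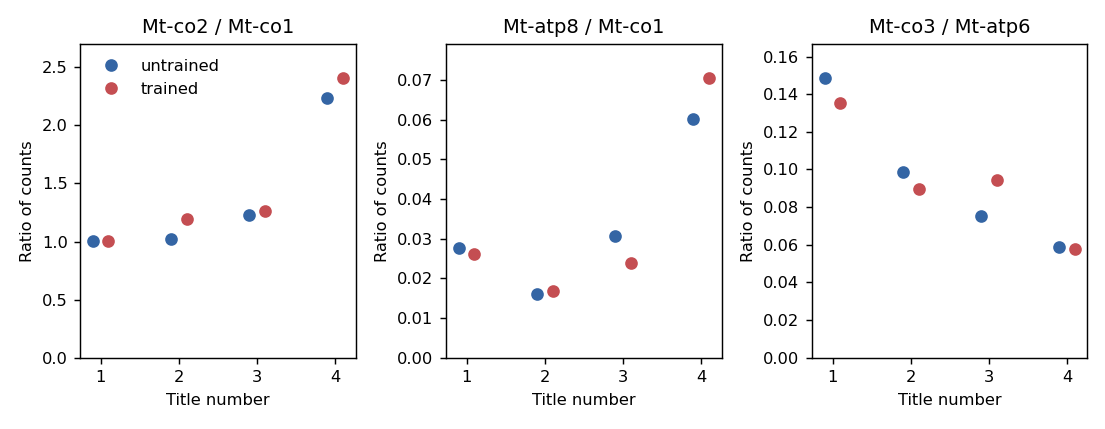
Ratio of deposited counts (vertical axes, starting at 0) for 3 pairs of genes within each library, by title number, with untrained in blue and trained in red. For Mt-co2 over Mt-co1 both number 4 libraries stand at 2.23 and 2.41, above the 1.002 to 1.26 of the other 6.

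The 2 genes outside the list with the pattern most like the members' mean log2 CPM over the 8 samples (0.5 added to each count), among genes that passed the filter, were named by ID. ENSRNOG00000031033, with 1866 to 3028 counts, had a Pearson correlation of 0.98 and differed with training by 0.23 on the log2 scale (SE 0.27; edgeR adjusted p = 0.999). ENSRNOG00000016687, with 7 to 25 counts, had a correlation of 0.96 and a difference of 0.34 on that scale (SE 0.46; edgeR adjusted p = 0.999). The points share libraries and depth, so the correlations carry no test. Reads of mitochondrial transcripts can also match copies of mitochondrial DNA in the nuclear genome, and how such reads were counted is not given in the sources used here.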

How the data were processed

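The values are integer UMI counts from CEL-Seq2 libraries, as deposited by the authors in 1 table; HISAT2 2.0.4, HTSeq 0.6.0 and the build Rnor_6.0 are listed per the submitters' processing notes. The sources used here give no annotation release, strand setting, UMI length or UMI collapsing. Groups came from the labels and columns from the titles. The members, lists and tests were chosen with earlier results of these data known. Lists of other pathway genes and of cell type markers were not used, because 0 IDs matched the gene table.

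Groups were compared with edgeR 4.0.16 (R 4.3.3) on all 8 samples without covariates: expression filter (minimum count 10, minimum total 15), TMM, quasi-likelihood F test, Benjamini-Hochberg threshold 0.05. DESeq2 1.42.0 was an alternative, with its default filter on low mean counts before adjustment. The fits were run on simulated counts with large planted changes and no ceiling, which tests neither the ceiling correction nor the recovery of small differences. Ceiling-corrected counts are -K ln(1 - n/K), K = 4096, rounded for fits. Single values used exact permutation tests. All 6 members were named, with the 2 genes of most similar pattern.

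Same-number samples deviated together across genes (log2 CPM, prior count 2; correlations 0.34, 0.40, 0.27 and 0.51, all over 0.1; highest between other numbers 0.26), so numbers were treated as pairing the samples. This comes from the counts, not the labels.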

Additional observations from a re-analysis of the deposited data

How the results depend on the processing

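The count of 0 genes called with training held in 18 of 22 alternatives. It was 6 with no filter on low counts, and 4, 1 and 2 with the replicate block and without both samples of number 1, 2 and 4, fits that were chosen after the data were examined, as were all fits on the number and DESeq2 on the filtered genes. No member was called in any of its 22 alternatives. Mt-cyb, Mt-co1, Mt-co3 and Mt-atp6 had a value above 0 in 22 of 22, with log2 fold changes of 0.12 to 0.48, 0.0059 to 0.29, 0.22 to 0.52 and 0.11 to 0.46. Mt-co2 ran from -0.056 to 0.48 when each sample was omitted, and Mt-atp8 from -0.33 to 0.47. Mt-atp8 was also at -0.016 with no filter and at -0.0080 with the replicate block and without both samples of number 1. The replicate block changed no call. The difference in the members' share was above 0 in 11 of 11 alternatives (0.42 to 1.08 points when each sample was omitted). It was 0.31 points with the ceiling correction. Sign flips within pairs, counted among the 11, leave the difference itself at 0.72 points and are no check on its sign. The 381 genes that differed among numbers became 116 in a DESeq2 fit of the same 3016 genes. DESeq2 adjusted its p-values after its default filter on low mean counts, so over fewer genes than edgeR. These counts of genes called do not rest on equal sets. In fits of all 12545 genes with a count, the 381 genes became 117 by DESeq2, again after that filter, and 572 by edgeR with no filter. They became 65 to 543 when each sample was omitted, and 124 and 55 without both samples of number 2 and 4. Depth limits Mt-atp8 most, with at most 52 counts in a library, and the possible ceiling limits Mt-cyb and Mt-atp6.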

Other observations

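In 14 sets of 4 values (the CPM of each member and the members' share, per group) no sample stood far from the other 3 by Dixon's criterion at 95%. The ratio of Mt-atp6 to Mt-cyb counts, the 2 most counted members, stayed between 0.86 and 1.11 in all 8 libraries, and between 0.72 and 1.25 after the ceiling correction.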
